A study of Homo sapiens with 12 samples.

Results

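The tripartite motif (TRIM) family was followed across 12 expression arrays of 2 established cell lines of human pancreatic ductal adenocarcinoma, SW1990 and PANC-1. A gene was a member when its symbol was TRIM followed by digits, with at most 1 letter after them, and when at least 1 probe set on the array carried that symbol alone. By this rule 63 of the 22411 genes measured were members. RefSeq lists 75 symbols of this form. Another 9 of them (TRIM13, TRIM22, TRIM25, TRIM34, TRIM43, TRIM49C, TRIM58, TRIM64B and TRIM73) had only probe sets that also carry other symbols and were not used, and the remaining 3 were not matched to a probe set. Of a list of 10 members known to respond to interferon, 7 were measured (TRIM5, TRIM14, TRIM21, TRIM26, TRIM38, TRIM56 and TRIM69), and the other 56 members are called the other members.

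The study asked how GLI1, the main transcriptional activator of Hedgehog signalling, changes gene expression in these lines. The arrays fell into 4 groups of 3: SW1990 labelled GLI1 (LIP, LIP-1 and LIP-2), SW1990 labelled control (a, b and c), PANC-1 labelled GLI1 (LIP, LIP-1 and LIP-2) and PANC-1 labelled control (S10, S11 and S8). The transfection label is GLI1 for the GLI1 groups and control for the control groups. The study's methods describe transfection with Gli1 cDNA and with corresponding controls, so all 12 arrays are taken to be of transfected cells. Whether the 3 arrays of a group are separate cultures is not given in the sources, so p-values measure the spread between these arrays, which may be technical. The labels name biotin labelling and Trizol extraction and the probe sets are those of an Affymetrix transcriptome array, whereas the study's methods describe another maker's slides.

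GLI1 itself ran against the labels. Its normalized log2 value averaged 6.89 in the SW1990 arrays labelled GLI1 and 11.81 in those labelled control, and 7.93 in the PANC-1 arrays labelled GLI1 and 11.50 in those labelled control. Directions are therefore given only by label, and whether the labels were exchanged was not tested. Interferon-stimulated genes outside the family moved with the labels as well. Of 12 measured, 12 were called lower in SW1990 and 4 in PANC-1, where 9.62% and 5.25% of all genes were. The median log2 value of these 12 genes was 5.84 to 6.05 in the SW1990 arrays labelled GLI1 and 10.58 to 10.74 in those labelled control. In PANC-1 it was 5.77 to 6.11 in the arrays labelled GLI1, against 6.82 in control array S10, 6.17 in S11 and 9.23 in S8, so that 1 control array stood apart. Among markers of the cell lines themselves, KRT19, EPCAM and CDH1 were higher and VIM, ZEB1 and CDH2 lower in SW1990 than in PANC-1. By label, VIM was called higher in SW1990, and KRT19 was called higher and ZEB1 lower in PANC-1. S8 stood apart in such genes too, with log2 values of 11.81 in S8 against 10.46 in S10 and 10.58 in S11 for KRT8, and of 7.74 in S8 against 6.29 in S10 and 6.32 in S11 for CDH1. Of 15 measured markers of fibroblasts, leukocytes, endothelium, acinar and endocrine cells, PRSS1 was called higher in SW1990, and COL1A1 and CD14 were called higher in PANC-1. Of all genes, 9.3% were called higher in SW1990 and 4.39% in PANC-1. The 4 measured leukocyte markers had a log2 summed signal of 7.42 to 7.64 in the SW1990 arrays labelled GLI1 and 7.57 to 7.69 in those labelled control, and of 7.52 to 7.73 in the PANC-1 arrays labelled GLI1 and 7.32 to 7.49 in those labelled control. The part of these markers in the results was not tested.

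TRIM proteins share an N-terminal arrangement of a RING domain, which in most members carries E3 ubiquitin ligase activity, followed by B-boxes and a coiled coil through which they form dimers. The C-terminal end differs between members and sets what each protein binds. A PRYSPRY domain is the most common, while others carry a PHD finger with a bromodomain, NHL repeats or no such domain. Several members restrict viruses or act on the pathways that sense viral nucleic acid, and part of these are themselves induced by type I interferon through the factor complex ISGF3 and through IRF proteins, which bind promoter elements built from repeats of GAAA.

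The promoters of the members are shown first. The interferon-responsive list was not chosen by promoter sequence. Its members are known to respond to interferon, which acts in part through GAAA elements, so finding these elements there is no independent evidence. The motif searched was GAAA, then any 2 bases, then GAAA again, on both strands, in the RefSeq promoter windows of GRCh38.p14 that run from 250 bases before to 50 bases after a gene's start. Windows were found for 50 of the 63 members. Of the 7 measured interferon-responsive members, 5 (71.4%) held the motif, against 4 of 43 other members with a window (9.30%) and 1195 of all 27305 genes with a window (4.38%). Of the interferon-stimulated genes outside the family, 7 of 10 held it. Of the 2 listed interferon-responsive members that had a window but no probe set of their own, 1 held it. A match describes these letters in this window and is not a measured binding site. The sequences below are those of the 5 interferon-responsive members and of TRIM16, the 1 match among other members that were called lower in SW1990. Each is written 5′ to 3′ on the strand of the gene, with the matched letters in capitals, where TTTC stands for GAAA on the opposite strand.
TRIM14: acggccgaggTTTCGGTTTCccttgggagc
TRIM5: atagtttatcTTTCACTTTCctgccctgag
TRIM69: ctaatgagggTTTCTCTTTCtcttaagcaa
TRIM21: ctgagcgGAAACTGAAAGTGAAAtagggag
TRIM26: cgcctgaTTTCAGTTTCCATTTCgctgccc
TRIM16: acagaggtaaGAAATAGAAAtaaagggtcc

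The TRIM14 stretch lies at chr9:98119229-98119258 on the minus strand, and its match begins 26 bases before the listed gene start. That of TRIM5 is at chr11:5685082-5685111 on the minus strand, with the match 27 bases before the start. That of TRIM69 is at chr15:44736456-44736485 on the plus strand, with the match 62 bases before the start. TRIM21 (chr11:4393663-4393692, minus strand) and TRIM26 (chr6:30213578-30213607, minus strand) each held 2 overlapping matches, so that GAAA recurs once more in the same spacing. In TRIM21 the first of them begins at base 18 of the transcribed part, and in TRIM26 it begins 194 bases before the start. The TRIM16 match (chr17:15683012-15683041, minus strand) lies 80 bases before the start that the promoter table uses, which is inside the annotated span of the gene and not at its outer end. TRIM38 and TRIM56 held no match in their windows. The other matches among members were in TRIM2, TRIM44 and TRIM64C, none of which was called in SW1990.

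In SW1990, 13 members were lower and 7 were higher in the GLI1-labelled than in the control-labelled arrays (limma, Benjamini-Hochberg adjusted p under 0.05 over all genes), where 9.62% of all genes were called lower and 9.3% higher. The 7 interferon-responsive members were all among the 13. Their log2 fold changes ran from -1.85 to -0.43. Of the 7, 5 fell by more than 2-fold, and no other member changed that much in either direction. Their median log2 fold change was -1.31, against 0.002 in the 56 other members and 0.008 over all genes tested. In each of the 7, all 3 arrays labelled GLI1 lay below all 3 labelled control, as in 20% of all genes. The interferon-responsive list was known to move in these data when it was chosen, so its counts describe it and are no independent evidence.

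**Figure D1:**
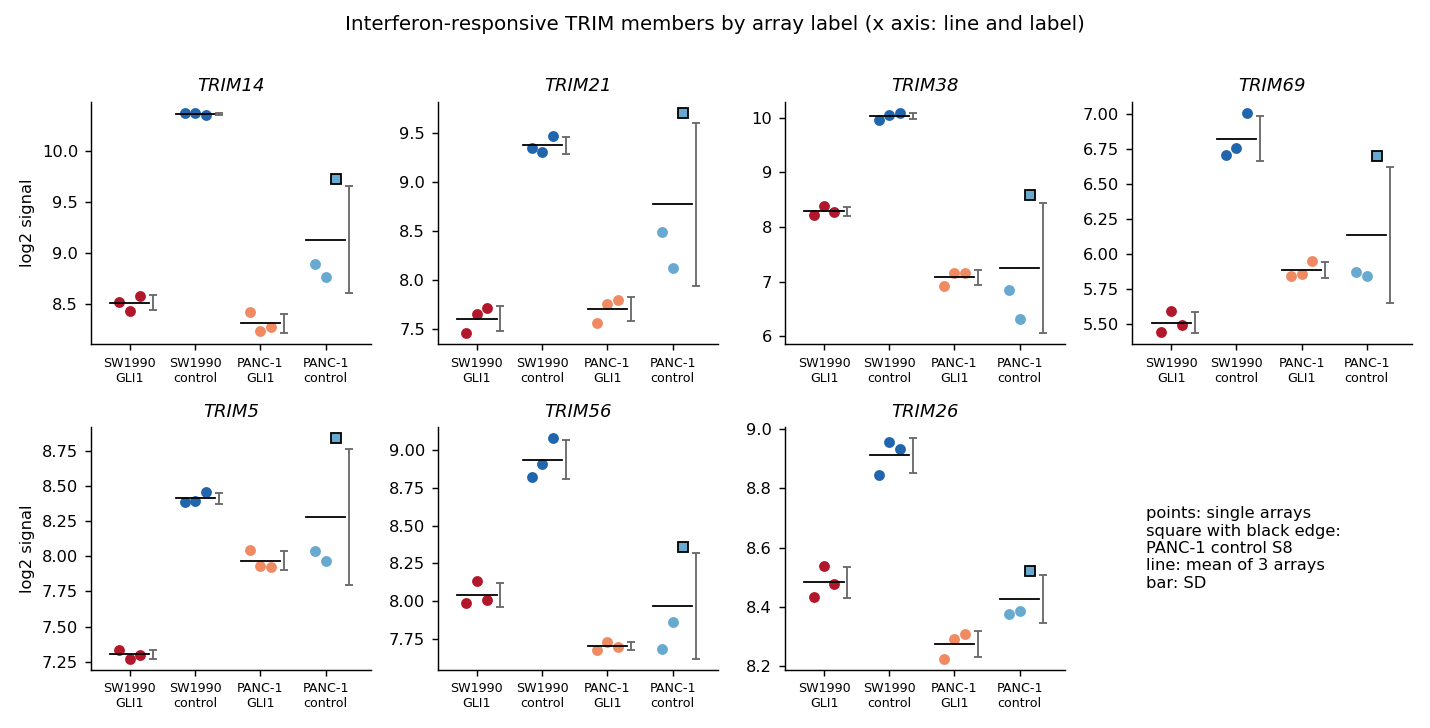
Normalized log2 signal (y axis) of the 7 interferon-responsive members in each array, by line and label (x axis), with the mean of 3 arrays as a line, the SD as a bar and PANC-1 control array S8 as a square with a black edge. In SW1990 the arrays labelled GLI1 lie below those labelled control in all 7 panels, and in PANC-1 S8 lies above S10 and S11 in all 7.

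TRIM14, a RING-less mitochondrial adaptor in the signalling of the RNA sensor RIG-I, had log2 values of 8.52, 8.43 and 8.58 in the SW1990 arrays labelled GLI1, against 10.37, 10.36 and 10.34 in those labelled control. The level was 3.60-fold lower (log2 fold change -1.85, standard error 0.19, limma adjusted p = 0.00012). The groups were far apart and the control arrays lay close together. TRIM21, a cytosolic receptor for the constant part of antibodies that marks antibody-coated virus for degradation, had 7.46, 7.65 and 7.71 in the arrays labelled GLI1, against 9.35, 9.31 and 9.48 in those labelled control. Its log2 fold change was -1.77 (standard error 0.30, limma adjusted p = 0.00201). TRIM38, a ligase that tunes Toll-like receptor and DNA-sensing pathways, had 8.22, 8.37 and 8.27 in the arrays labelled GLI1 and 9.96, 10.04 and 10.08 in those labelled control. Its log2 fold change of -1.74 was of similar size, with a larger standard error of 0.42 (limma adjusted p = 0.0138). That error is pooled over both lines, and without array S8 of PANC-1 it was 0.12.

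TRIM69, a member with antiviral activity in human cells, had 5.45, 5.59 and 5.49 in the SW1990 arrays labelled GLI1, against 6.70, 6.75 and 7.01 in those labelled control. Its log2 fold change was -1.31 (standard error 0.18, limma adjusted p = 0.000702). TRIM5, the restriction factor that binds incoming retroviral capsids, had 7.33, 7.27 and 7.30 in the arrays labelled GLI1 and 8.39, 8.40 and 8.46 in those labelled control. It was 2.17-fold lower (limma adjusted p = 0.00136), and the replicates of each label lay close together. TRIM56, a ligase of the cytosolic DNA-sensing pathway, had 7.98, 8.13 and 8.01 in the arrays labelled GLI1 and 8.83, 8.91 and 9.08 in those labelled control. It was 1.86-fold lower (limma adjusted p = 0.00124). TRIM26, a ligase encoded in the major histocompatibility complex, changed least. Its values were 8.43, 8.54 and 8.48 in the arrays labelled GLI1 and 8.85, 8.96 and 8.93 in those labelled control, which is 1.35-fold lower (log2 fold change -0.43, standard error 0.06, limma adjusted p = 0.000571). The 8 probe sets of TRIM26 gave log2 fold changes of -0.46 to -0.43. All 7 members kept their calls when any of the 12 arrays was left out.

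Of the 56 other members, 6 were called lower and 7 higher in SW1990, and 43 were not called. These shares are close to the 9.62% of all genes called lower and the 9.3% called higher. None of the 56 members changed by 2-fold. Among the lower ones, TRIM16L, which RefSeq annotates as a transcribed pseudogene, had log2 values of 9.63, 9.98 and 9.99 in the arrays labelled GLI1 and 10.55, 10.56 and 10.50 in those labelled control. TRIM16, a RING-less member that acts at damaged lysosomes, had 8.98, 9.11 and 9.09 in the arrays labelled GLI1 and 9.45, 9.56 and 9.48 in those labelled control. The log2 fold changes were -0.67 for TRIM16L (limma adjusted p = 0.00136) and -0.44 for TRIM16 (limma adjusted p = 0.00496). As the pair are close copies of each other, their signals may not be fully separate. TRIM33, a corepressor that binds SMAD proteins of the TGFβ pathway, had 10.14, 10.28 and 10.21 in the arrays labelled GLI1 and 10.59, 10.59 and 10.54 in those labelled control, a log2 fold change of -0.36 (limma adjusted p = 0.00668).

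TRIM31 and TRIM40, ligases of the gut epithelium whose genes neighbour TRIM26 on chromosome 6, were also called lower. TRIM31 had 5.39, 5.56 and 5.57 in the arrays labelled GLI1 against 5.87, 5.72 and 5.94 in those labelled control, and it lay in the lowest 30% of genes by mean signal. TRIM40 had 6.59, 6.68 and 6.53 in the arrays labelled GLI1 against 7.02, 7.03 and 6.72 in those labelled control. Their log2 fold changes were -0.34 (limma adjusted p = 0.0109) for TRIM31 and -0.32 (limma adjusted p = 0.0298) for TRIM40. In the same gene cluster, TRIM10 (-0.17) and TRIM15 (0.25) were not called. TRIM52, called with a log2 fold change of -0.29, completes the 6. TRIM40 lost its call without SW1990 array LIP, LIP-2, a or b and with the values as deposited, and TRIM52 lost it without control array b or c. On chromosome 11, RefSeq draws TRIM6 within the span of TRIM5. TRIM6 was not called in the fit of both lines, which pools their spread (log2 fold change -0.37, limma adjusted p = 0.240). Every SW1990 array labelled GLI1 nonetheless lay below every one labelled control. TRIM6 was called lower with SW1990 fitted alone (limma adjusted p = 0.00351), with array weights and in the methods' t-test after Benjamini-Hochberg adjustment. Of the 12 fits that leave out 1 array, 1 called it, the fit without S8 (limma adjusted p = 0.0190).

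TRIM28 led the members that were higher. It is the corepressor that KRAB zinc-finger proteins recruit to silence retroelements. Its log2 values were 11.65, 11.64 and 11.60 in the SW1990 arrays labelled GLI1 and 11.15, 11.18 and 11.23 in those labelled control, which is 1.36-fold higher (log2 fold change 0.44, standard error 0.05, limma adjusted p = 0.000285). It kept its call without any 1 of the 12 arrays, and each of the other 6 members called higher lost it without at least 1 array. TRIM45, a member with a filamin-type domain, had 7.31, 7.25 and 7.15 in the arrays labelled GLI1 and 6.82, 6.95 and 6.99 in those labelled control. TRIM66, a relative of TRIM28 with PHD finger and bromodomain, had 7.53, 7.36 and 7.48 in the arrays labelled GLI1 and 7.08, 7.14 and 7.32 in those labelled control. The log2 fold changes were 0.32 for TRIM45 (limma adjusted p = 0.0217) and 0.27 for TRIM66 (limma adjusted p = 0.0417).

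TRIM27, a ligase of endosomal trafficking, had 9.60, 9.58 and 9.73 in the SW1990 arrays labelled GLI1 and 9.42, 9.30 and 9.39 in those labelled control. TRIM65, a ligase of the RNA sensor MDA5, had 8.12, 8.11 and 8.04 in the arrays labelled GLI1 and 7.96, 7.81 and 7.85 in those labelled control. Both differences were small, with log2 fold changes of 0.27 (limma adjusted p = 0.0185) and 0.22 (limma adjusted p = 0.0211). TRIM41 at 0.17 and TRIM48 at 0.21 were the remaining 2, and TRIM48 lay in the lowest 30% of genes by mean signal.

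**Figure D2:**
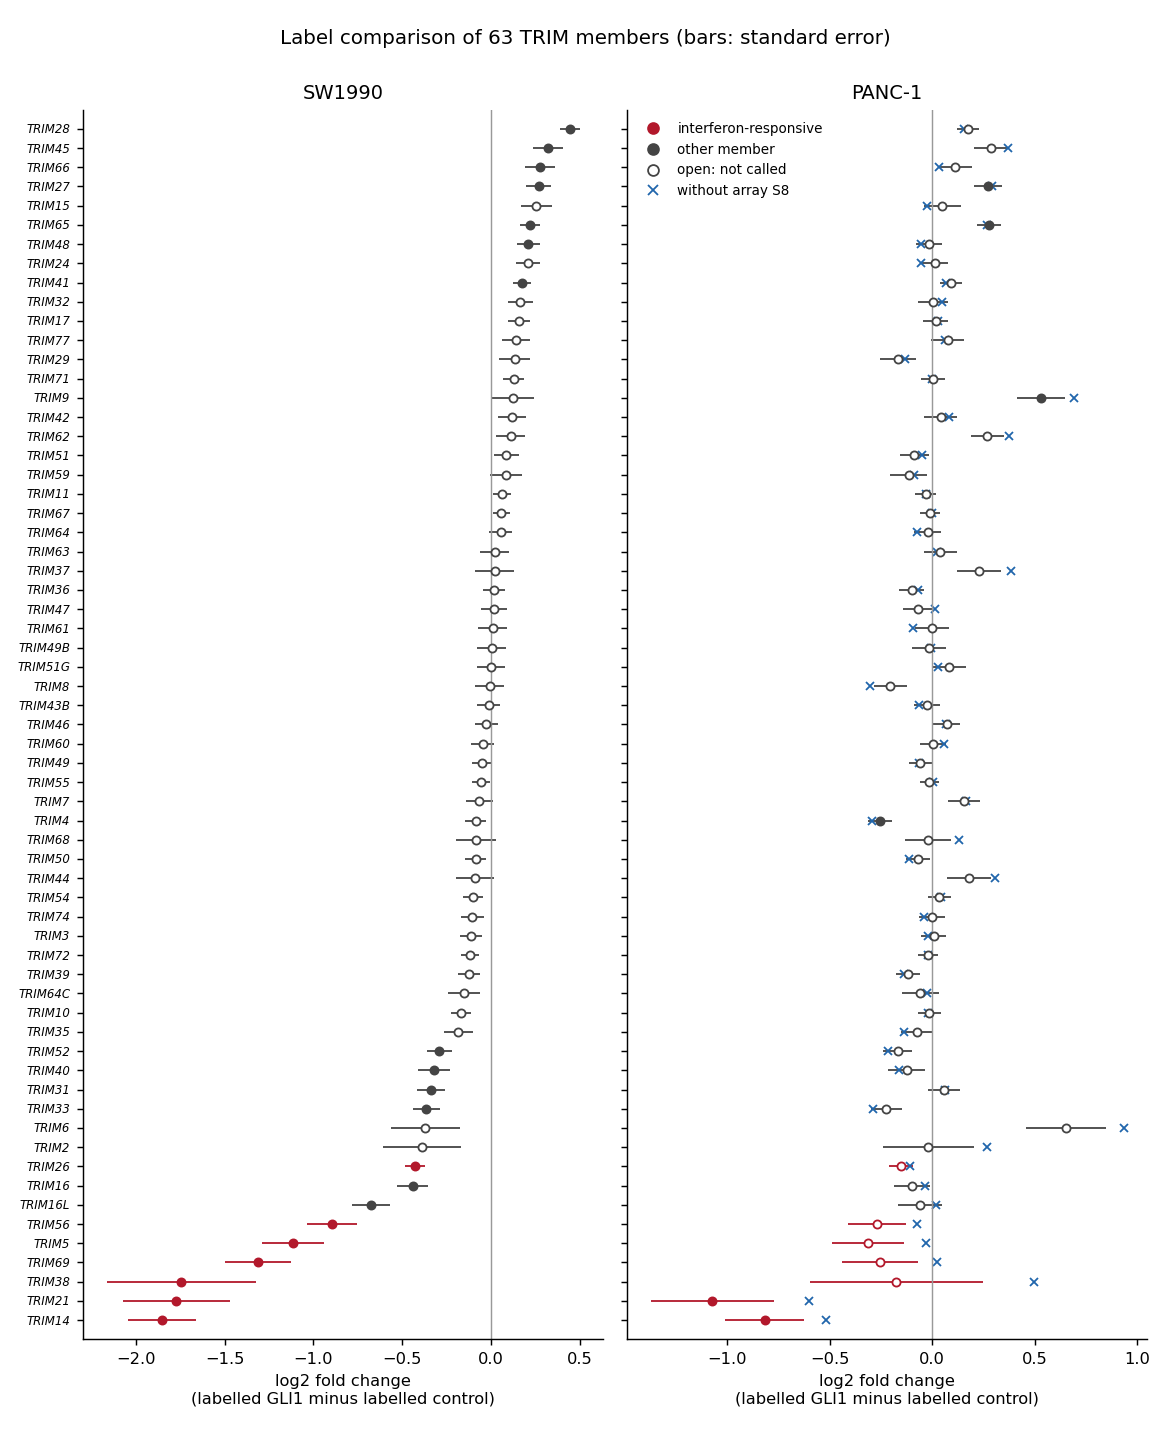
Log2 fold change, labelled GLI1 minus labelled control (x axis), of all 63 members in SW1990 and in PANC-1, ordered by the SW1990 value, with the standard error as a bar and filled points for members called at an adjusted p under 0.05. Crosses give the PANC-1 value without control array S8. Of the interferon-responsive members in red, 6 fill the lower end of the SW1990 panel, TRIM26 lies above TRIM16L and TRIM16, and the crosses of TRIM38 and TRIM6 lie farther to the right than the points.

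By domain structure, in SW1990, where 9.62% of all genes were called lower and 9.3% higher, the 4 members with a PHD finger and a bromodomain held calls in both directions, with TRIM28 and TRIM66 higher, TRIM33 lower and TRIM24 not called (0.21, limma adjusted p = 0.0542). None of the 4 members with a COS box, fibronectin repeat and PRYSPRY domain, of the 3 muscle members with a COS box or of the 4 with NHL repeats was called. Of 5 members listed as RING-less, 3 were called lower (TRIM14, TRIM16 and TRIM16L), and TRIM29 and TRIM44 were not called. That list is not complete, as members with a PHD finger, TRIM66 among them, were grouped only by that domain. Of the 7 measured members with no C-terminal domain, 4 were called lower (TRIM31, TRIM40, TRIM52 and TRIM56). TRIM14 and TRIM56 are also on the interferon-responsive list, and TRIM16 and TRIM16L are close copies. The counts by domain are therefore not separate from those above. Of the 63 members, 15 lay in the lowest 30% of genes by mean signal, and 13 of these 15 were not called in SW1990.

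**Figure D3:**
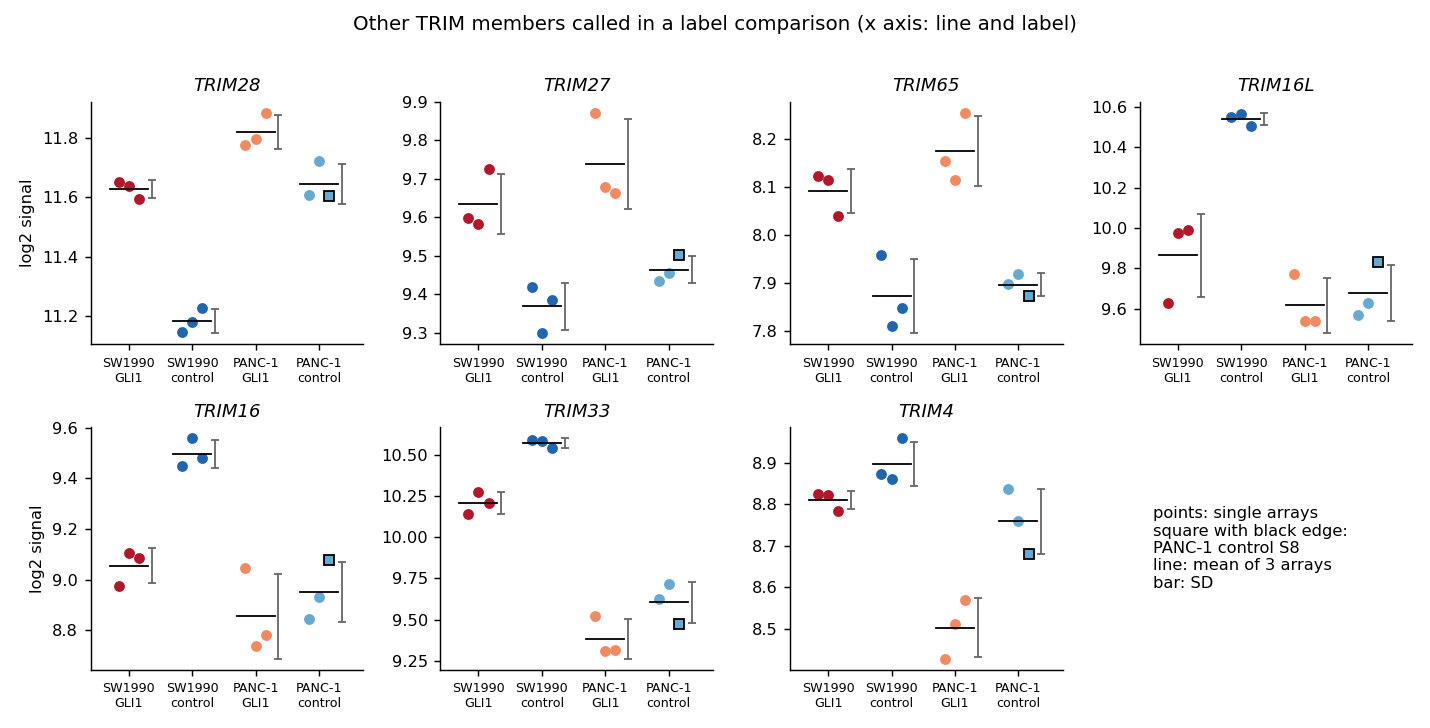
Normalized log2 signal (y axis) of 7 other members called in a label comparison, in each array by line and label (x axis), with the mean of 3 arrays as a line, the SD as a bar and PANC-1 control array S8 as a square with a black edge. TRIM28 and TRIM65 are higher and TRIM16L, TRIM16 and TRIM33 lower in the SW1990 arrays with the GLI1 label than with the control label, and TRIM4 is lower with the GLI1 label in PANC-1.

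In PANC-1, 3 members were called lower and 3 higher, where 5.25% of all genes were called lower and 4.39% higher. The 3 lower ones were TRIM14, TRIM21 and TRIM4, and the 3 higher ones were TRIM9, TRIM27 and TRIM65. The shares of members are close to those of all genes. All 7 interferon-responsive members had a negative log2 fold change, but only TRIM14 and TRIM21 were called, and the median of the 7 was -0.27, against -0.006 in the other members. In 3 of the 7 (TRIM14, TRIM21 and TRIM26) all 3 arrays labelled GLI1 lay below all 3 labelled control, as in 11.6% of all genes. Each of the 6 calls was lost without at least 1 array. With PANC-1 fitted alone, limma called no member, where 0.384% of all genes were called, and 14 members (18.4% of all genes) had an unadjusted p under 0.05. With SW1990 fitted alone, 14 members were lower and 8 higher, where 24.3% of all genes were called.

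TRIM14 had log2 values of 8.42, 8.24 and 8.27 in the PANC-1 arrays labelled GLI1, against 8.89, 8.76 and 9.73 in control arrays S10, S11 and S8. It was lower by 0.82 on the log2 scale (standard error 0.19, limma adjusted p = 0.0238). TRIM21 had 7.56, 7.76 and 7.79 in the arrays labelled GLI1, against 8.49, 8.12 and 9.71 in S10, S11 and S8. It was lower by 1.07 (standard error 0.30, limma adjusted p = 0.0477). The PANC-1 call of TRIM21 held in only 2 of the 12 fits that leave out 1 array, and that of TRIM14 in 10. In both genes S8 was far above the other control arrays, and all 3 control arrays lay above the arrays labelled GLI1.

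TRIM38 was split by S8, with 6.91, 7.15 and 7.16 in the PANC-1 arrays labelled GLI1, against 6.84 and 6.32 in S10 and S11 and 8.59 in S8. TRIM5 had 8.05, 7.93 and 7.93 in the arrays labelled GLI1, against 8.04, 7.97 and 8.84 in S10, S11 and S8. TRIM69 had 5.84, 5.86 and 5.95 in the arrays labelled GLI1, against 5.87, 5.85 and 6.70 in S10, S11 and S8. In these 3 genes S10 and S11 lay among or below the arrays labelled GLI1, and S8 alone lay above them. TRIM56 had 7.67, 7.73 and 7.69 in the arrays labelled GLI1, against 7.68, 7.86 and 8.36 in S10, S11 and S8. TRIM26 had 8.23, 8.29 and 8.31 in the arrays labelled GLI1, against 8.38, 8.39 and 8.52 in S10, S11 and S8.

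Relative to the mean of S10 and S11, S8 was higher in all 7 interferon-responsive members, by 0.14 (TRIM26) to 2.01 (TRIM38) on the log2 scale. Among the 56 other members, S8 was above both of the other control arrays in 23 and below both in 23. Over all 22411 genes, it was above both in 9510 and below both in 8546. S8 was also above the other control arrays by 0.86 in TRIM2 and 0.85 in TRIM6.

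Without S8, 5 members were called lower and 9 higher in PANC-1, where 11% of all genes were called lower and 13.3% higher. TRIM14 was then lower by 0.52 (limma adjusted p = 0.000409) and TRIM21 by 0.60 (limma adjusted p = 0.0034). TRIM38 was called in the opposite direction, with a log2 fold change of 0.50 (limma adjusted p = 0.0177). TRIM5, TRIM26, TRIM56 and TRIM69 were not called, with log2 fold changes of -0.11 to 0.02. The other members called without S8 were TRIM4, TRIM8 and TRIM33, which were lower, and TRIM6, TRIM9, TRIM27, TRIM37, TRIM44, TRIM45, TRIM62 and TRIM65, which were higher. Of those that were higher, TRIM6, a ligase that makes unanchored ubiquitin chains in interferon signalling, had the highest value at 0.93 (limma adjusted p = 0.000182).

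TRIM9, a brain-enriched ligase of the netrin pathway, had 7.46, 7.34 and 7.38 in the PANC-1 arrays labelled GLI1, against 6.58, 6.82 and 7.18 in S10, S11 and S8. It was higher by 0.53 (standard error 0.12, limma adjusted p = 0.0183), and by 0.69 without S8. TRIM65 had 8.15, 8.11 and 8.25 in the arrays labelled GLI1, against 7.90, 7.92 and 7.87 in the control arrays, a log2 fold change of 0.28 (limma adjusted p = 0.0147). TRIM27 had 9.87, 9.68 and 9.66 in the arrays labelled GLI1, against 9.43, 9.46 and 9.50 in the control arrays, a log2 fold change of 0.27 (limma adjusted p = 0.0298). TRIM65 and TRIM27 were therefore higher in both lines, and S8 lay close to the other control arrays in both genes. TRIM4, a ligase that acts on RIG-I, had 8.43, 8.51 and 8.57 in the arrays labelled GLI1, against 8.84, 8.76 and 8.68 in the control arrays. It was lower by 0.26 (limma adjusted p = 0.0214), and in SW1990 its log2 fold change of -0.09 was not called.

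The difference between the lines was tested directly, as the PANC-1 label effect minus the SW1990 label effect. No member was called in limma, where 2.39% of all genes were, and 14 members (16.4% of all genes) had an unadjusted p under 0.05. The smallest limma adjusted p-values were those of TRIM16L (log2 difference 0.61, standard error 0.15, adjusted p = 0.0628), TRIM69 (1.06, standard error 0.26, adjusted p = 0.0647) and TRIM14 (1.03, standard error 0.27, adjusted p = 0.0786). TRIM16L had 9.77, 9.54 and 9.54 in the PANC-1 arrays labelled GLI1 and 9.57, 9.63 and 9.83 in S10, S11 and S8, and those labels overlapped. All 7 interferon-responsive members had a positive difference, with a median of 0.80. For TRIM27 the difference was 0.01 (standard error 0.10) and for TRIM65 it was 0.06 (standard error 0.08).

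This count rested on 1 array. Without S8, 17 members were called for the difference between lines, where 15.2% of all genes were. The 17 held all 7 interferon-responsive members, whose median difference was then 1.17. TRIM38 had the largest of these 7 at 2.24 (limma adjusted p = 3.3e-05) and TRIM26 the smallest at 0.32 (limma adjusted p = 0.0182). The other 10 were TRIM6, TRIM9, TRIM16, TRIM16L, TRIM31, TRIM37, TRIM44 and TRIM62 with a positive difference and TRIM8 and TRIM28 with a negative one.

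Between the lines, 26 members differed in the arrays labelled GLI1 (39.1% of all genes did) and 26 in the arrays labelled control (40.6% of all genes). Of the 26 in the arrays labelled GLI1, 18 were higher and 8 lower in SW1990, against 4708 and 4060 of all 22411 genes. In the arrays labelled control, 20 were higher and 6 lower in SW1990, against 4920 and 4182 of all 22411 genes. The widest gap was that of TRIM6, with 5.94, 5.84 and 5.80 in the SW1990 arrays labelled GLI1 and 9.55, 9.90 and 9.87 in the PANC-1 arrays of that label. In the control arrays TRIM6 had 6.21, 6.20 and 6.29 in SW1990 and 8.70, 8.99 and 9.69 in PANC-1. The log2 difference of TRIM6, SW1990 minus PANC-1, was -3.92 in the arrays labelled GLI1 (limma adjusted p = 3.19e-08) and -2.89 in those labelled control (limma adjusted p = 3.99e-07).

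**Figure D4:**
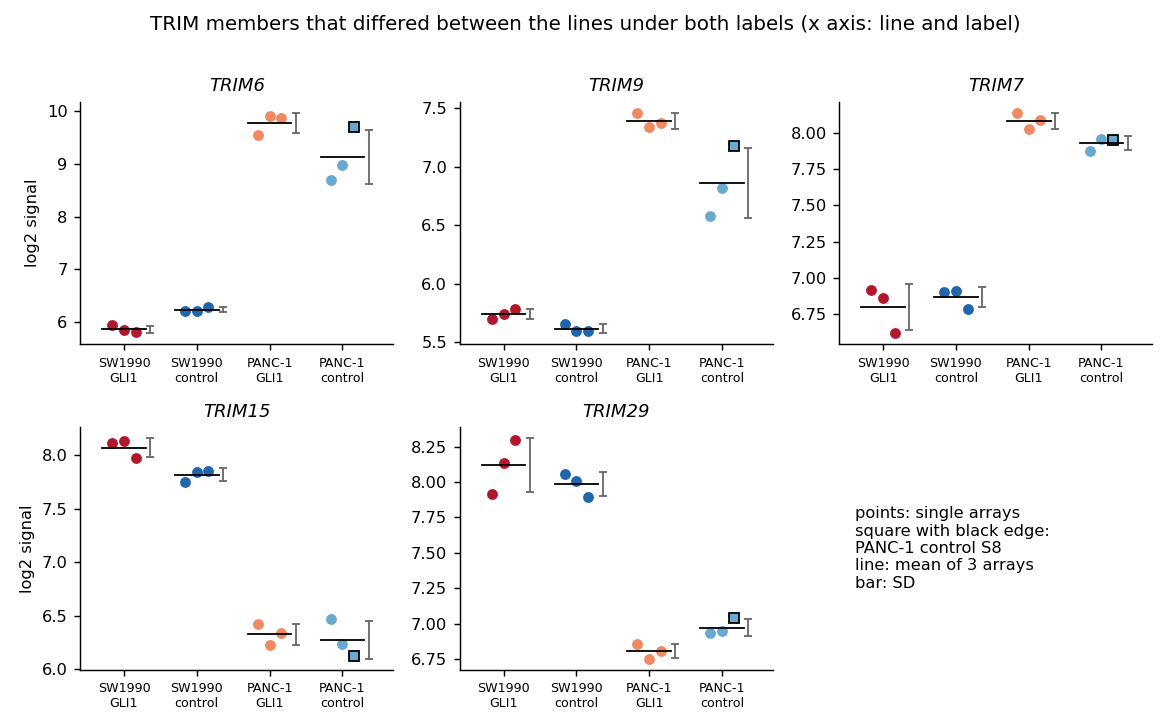
Normalized log2 signal (y axis) of 5 members that differed between the lines under both labels, in each array by line and label (x axis), with the mean of 3 arrays as a line, the SD as a bar and PANC-1 control array S8 as a square with a black edge. TRIM6, TRIM9 and TRIM7 are lower and TRIM15 and TRIM29 higher in the SW1990 arrays than in the PANC-1 arrays of the same label.

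TRIM9 and TRIM7 were lower in SW1990 as well, and TRIM7 is a ligase that binds glycogenin. TRIM9 differed by -1.65 in the arrays labelled GLI1 and -1.24 in those labelled control, and TRIM7 by -1.29 and -1.07. TRIM15, a focal adhesion member, was higher in SW1990 by 1.74 in the arrays labelled GLI1 and by 1.54 in those labelled control. TRIM29, a RING-less member that is overexpressed in pancreatic cancer, was higher by 1.31 and by 1.01. TRIM33 was higher by 0.83 and 0.97 under the same labels. In the arrays labelled GLI1, TRIM36 (0.74) and TRIM8 (0.54) were also among the 10 largest differences, and in those labelled control TRIM16L (0.86) was.

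Of the 7 interferon-responsive members, 3 differed between the lines in the arrays labelled GLI1 (TRIM38 and TRIM26 higher and TRIM5 lower in SW1990). In the arrays labelled control 5 did, all higher in SW1990. Of all genes, 39.1% differed in the arrays labelled GLI1 and 40.6% in those labelled control. By direction, 4708 of all 22411 genes were higher in SW1990 under the GLI1 label and 4920 under the control label. Without S8, which also enters the pooled spread, 6 of the 7 members were called in the arrays labelled GLI1, against 9865 of all 22411 genes. The median difference of the 7 was 0.20 in the arrays labelled GLI1 and 0.68 in the arrays labelled control. It was 1.07 in the arrays labelled control without S8, when all 7 were called, against 9683 of all 22411 genes. TRIM38 was higher in SW1990 by 1.21 in the arrays labelled GLI1 and by 2.78 in those labelled control. The call of TRIM38 in the arrays labelled GLI1 held in 3 of the 12 fits that leave out 1 array. TRIM5 was lower in SW1990 by 0.67 in the arrays labelled GLI1 and had a difference of 0.13 in those labelled control that was not called. TRIM14 (1.23) and TRIM56 (0.97) were among the 10 largest differences in the arrays labelled control.

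Of 6 related genes under other symbols, PML was called lower in SW1990, where 9.62% of all genes were. PML, the organiser of nuclear bodies, had 7.90, 8.04 and 7.97 in the arrays labelled GLI1 and 8.91, 8.96 and 8.95 in those labelled control (log2 fold change -0.97, limma adjusted p = 0.0021). MID1, MID2, MEFV, TRIML1 and TRIML2 were not called. None of the 6 was called in PANC-1, where 5.25% of all genes were called lower and 4.39% higher.

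Of 20 listed partners and substrates of TRIM proteins, 14 were measured, and in SW1990 5 were called lower and 3 higher (9.62% and 9.3% of all genes). In the RIG-I pathway, on which TRIM14 and TRIM4 act, the sensor RIGI was lower by 3.10, the ubiquitin-like modifier ISG15 by 1.80 and the RNA-binding cofactor ZC3HAV1 by 1.40, whereas the adaptor MAVS was higher by 0.43 on the log2 scale. ISG15 is also 1 of the 12 interferon-stimulated genes counted above, so its fall is not a separate result. TAB2 and TAB3, the ubiquitin-chain readers of the TAK1 kinase that TRIM5 activates, were lower by 0.42 and 0.27. CBX1 and CBX3, heterochromatin proteins bound by TRIM28, were higher by 0.37 each. In PANC-1, where 5.25% of all genes were called lower and 4.39% higher, ZC3HAV1 (by 0.93), TAB2 (by 0.39) and TAB3 (by 0.33) were lower and CBX3 (log2 fold change 0.26, limma adjusted p = 0.0495) was higher. The CBX3 call held in 1 of the 12 fits that leave out 1 array, the fit without S8. RIGI had 8.58, 8.38 and 8.43 in the PANC-1 arrays labelled GLI1 against 9.61, 9.08 and 11.71 in S10, S11 and S8, and was not called (limma adjusted p = 0.0583). Without S8, RIGI was called lower in PANC-1, with a log2 fold change of -0.88 (limma adjusted p = 0.00266) in place of -1.67.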

How the data were processed

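The authors deposited log2 values of 12 arrays for 70523 probe sets, after background correction and normalization with tools not given in the sources used here. No depth applies to arrays, and 3 arrays per group limit the precision. Arrays were grouped by their labels, and all were used. The deposited log2 values were quantile normalized, since the array medians differed by 0.133. Symbols came from the platform annotation and were updated to RefSeq (GRCh38.p14). Of the probe sets, 23781 carried 1 symbol, 1543 several and 45199 none, and only the first kind was used, taking for each gene the probe set with the highest mean over 12 arrays.

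Differences were tested over all 22411 genes with lmFit and eBayes of limma 3.58.1 (R 4.3.3), with 4 group means and 8 residual degrees of freedom. The same steps were tested on simulated data with independent noise and no outlying array. How they act with an array such as S8 was therefore not tested. Members and lists were chosen with earlier results of these data known. Named members are the interferon-responsive list, all members called in a label comparison or in the difference between lines, the 10 largest called differences between lines under each label, and the 3 members with the smallest p in that difference. Promoter windows came from the RefSeq table, and a gene with several windows held the motif if any window did. Figures used Python 3.11.15, pandas 2.3.3 and matplotlib 3.10.9.

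Alternatives were the values as deposited, centring on the median, averaging the probe sets of a gene, dropping the 30% dimmest genes, limma-trend with robust eBayes, array weights, a 0.01 and a 2-fold threshold, each line fitted alone, the methods' t-test, a replicate block and leaving out each array. Averaging the SW1990 control arrays a and b, which lay closest to each other, was chosen after seeing the data.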

Additional observations from a re-analysis of the deposited data

How the results depend on the processing

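The SW1990 falls of the 7 interferon-responsive members kept their direction and call under each alternative that tests a change at an adjusted p under 0.05, and at 0.01 TRIM38 lost its call. The 13 members lower in SW1990 became 5 at a 2-fold threshold, and 12 to 15 when 1 array was left out. The 7 members higher in SW1990 became 14 with array weights, 1 at an adjusted p under 0.01, 0 at 2-fold, 1 in the methods' t-test after Benjamini-Hochberg adjustment, 2 with control arrays a and b averaged, and 1 (without control b) to 9 (without S8) when 1 array was left out. In the methods' t-test at its own threshold of 0.05, with no adjustment, 28 members passed in SW1990 (31.8% of all genes) and 10 in PANC-1 (14.7% of all genes).

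The 3 members lower in PANC-1 became 1 with arrays centred on the median, 11 with array weights and 1 at 2-fold. They became 0 at an adjusted p under 0.01, with PANC-1 fitted alone and in the methods' t-test after Benjamini-Hochberg adjustment. The 3 members higher in PANC-1 became 6 without the 30% of genes of lowest signal and 10 with array weights. Their count was 0 at an adjusted p under 0.01, at 2-fold, with PANC-1 fitted alone and in the t-test with that adjustment. Leaving out 1 array gave 0 (without LIP-1) to 5 (without S8) lower and 0 (without LIP-2 or S10) to 9 (without S8) higher. The 0 members whose label effect differed between lines became 20 with array weights and 0 to 17 when 1 array was left out, the 17 without S8. TRIM38 in PANC-1, at -0.17 and not called, reversed to a log2 fold change of 0.63 with array weights, and it ranged from -0.639 (without S11) to 0.497 (without S8) when 1 array was left out. The part of S8's high interferon-stimulated genes in these changes was not tested.

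The 26 members differing between lines in the arrays labelled GLI1 became 6 at 2-fold and 20 to 32 when 1 array was left out. The 26 in the arrays labelled control became 40 with array weights, 7 at 2-fold and 24 to 29 when 1 array was left out. The median SW1990 change of the other members, 0.002, was 0.067 as deposited, 0.04 with arrays centred on the median, and -0.034 to 0.017 when 1 array was left out. As deposited, 63.5% of all called genes in SW1990 were higher, against 49.1% after quantile normalization. In PANC-1, centring left 2 members higher and 1 lower. With the names LIP, LIP-1 and LIP-2 as a replicate block between the lines, 26 members differed. Over all genes, deviations of arrays sharing a name correlated at 0.11, 0.017 and 0.06. Arrays with different names were not compared, so these values cannot decide whether the names pair arrays. The sources do not explain the names, and they were not taken as a pairing.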
